A study of Mus musculus with 4 samples.

Results

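The 32 genes described here are markers and regulators of endothelial cells, the cells that line blood vessels and the inner surface of the heart, and each was found by its symbol on 1 row of a table of 23847 rows. Levels are in FPKM, which divides a gene's fragments by transcript length and by library size. The mice of the first group overexpressed Cdk8, the cyclin-dependent kinase of the Mediator complex, as a cardiac specific transgene (Cdk8Tg, 2 libraries). The second group was wild type (WT, 2 libraries). All mice were male, on a C57BL/6 background and at postnatal day 21, and polyadenylated RNA was sequenced from ventricle tissue. The sources used here state neither the promoter that drove the transgene nor the number of founder lines, and do not say whether each library came from its own animal, so the p-values below measure only the spread between these libraries, which may be technical.

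Endothelial cells sense vascular endothelial growth factors (VEGF) through the receptor kinases Kdr, Flt1 and Flt4, and angiopoietins through Tek, with Tie1 as its partner. They are joined by cadherin and claudin contacts, release nitric oxide, and keep their identity through transcription factors of the ETS and SOX families. In the ventricle a dense capillary bed runs beside the cardiomyocytes, which are known as a source of VEGF for these vessels.

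In every library all 32 genes were read out, from Tal1 at a mean of 1.60 FPKM to Cd34 at 100.5 FPKM, with a median gene at 17.9 FPKM. Cdk8 itself stood at 7309 and 8122 FPKM in Cdk8Tg against 7.89 and 9.86 FPKM in WT, so its level separated the groups as labelled. Depth was estimated from the smallest steps between FPKM values at about 13500000 and 13100000 fragments in Cdk8Tg and 15400000 and 15500000 in WT, if fragments averaged 200 bases and FPKM were scaled to each library's own total, neither of which the sources used here state. Myl2, the ventricular light chain, was at 10760 and 11371 FPKM in Cdk8Tg against 15873 and 15620 FPKM in WT. Atrial markers varied within groups, with summed levels of 861 and 2416 FPKM in Cdk8Tg against 670 and 225 FPKM in WT. Nppa was the largest part in each library, at 780 and 2072 FPKM in Cdk8Tg against 395 and 199 FPKM in WT. Its log2 change, Cdk8Tg minus WT, was 2.18 (limma, Benjamini-Hochberg adjusted p = 0.037). Myl4, Myl7 and Sln had log2 changes of 2.05, -0.88 and -1.69, none with a limma adjusted p under 0.05. The authors' deposited Cuffdiff table called each of them (q = 0.00086). Each was higher in Cdk8Tg replicate 2 than replicate 1, and in WT replicate 1 than replicate 2. Myl7 was at 8.51 and 52.7 FPKM in Cdk8Tg against 136.4 and 11.6 FPKM in WT. Sln was at 0.22 and 9.93 FPKM in Cdk8Tg against 43.8 and 2.08 FPKM in WT. The sum mainly follows Nppa and does not show this, and its cause was not tested.

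None of the 32 endothelial genes changed in the Cdk8Tg ventricles at a Benjamini-Hochberg adjusted p under 0.05 (limma), while 24.9% of all 11888 rows tested did. Without adjustment, 3 of the 32 had a limma p under 0.05 (Sox17, Icam2 and Dll4), against 41.6% of all rows. Fitted log2 changes, always Cdk8Tg minus WT on log2(FPKM + 1), ran from -0.45 for Sox17 to 0.26 for Plvap, and 20 of the 32 lay within 0.2 of 0. The 95% interval of every one of the 32 lay within 1 log2 unit of 0, between -0.86 and 0.88, so a doubling or halving on this scale was outside each interval. Of all rows tested, 88.4% had intervals that narrow. Over 14 alternatives the bounds reached from -1.17 (without WT replicate 2) to 1.14 (without WT replicate 1), and between 28 (without Cdk8Tg replicate 2) and 32 of the intervals stayed within 1 log2 unit where all 32 genes were tested. These intervals are not adjusted for the number of genes.

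**Figure D1:**
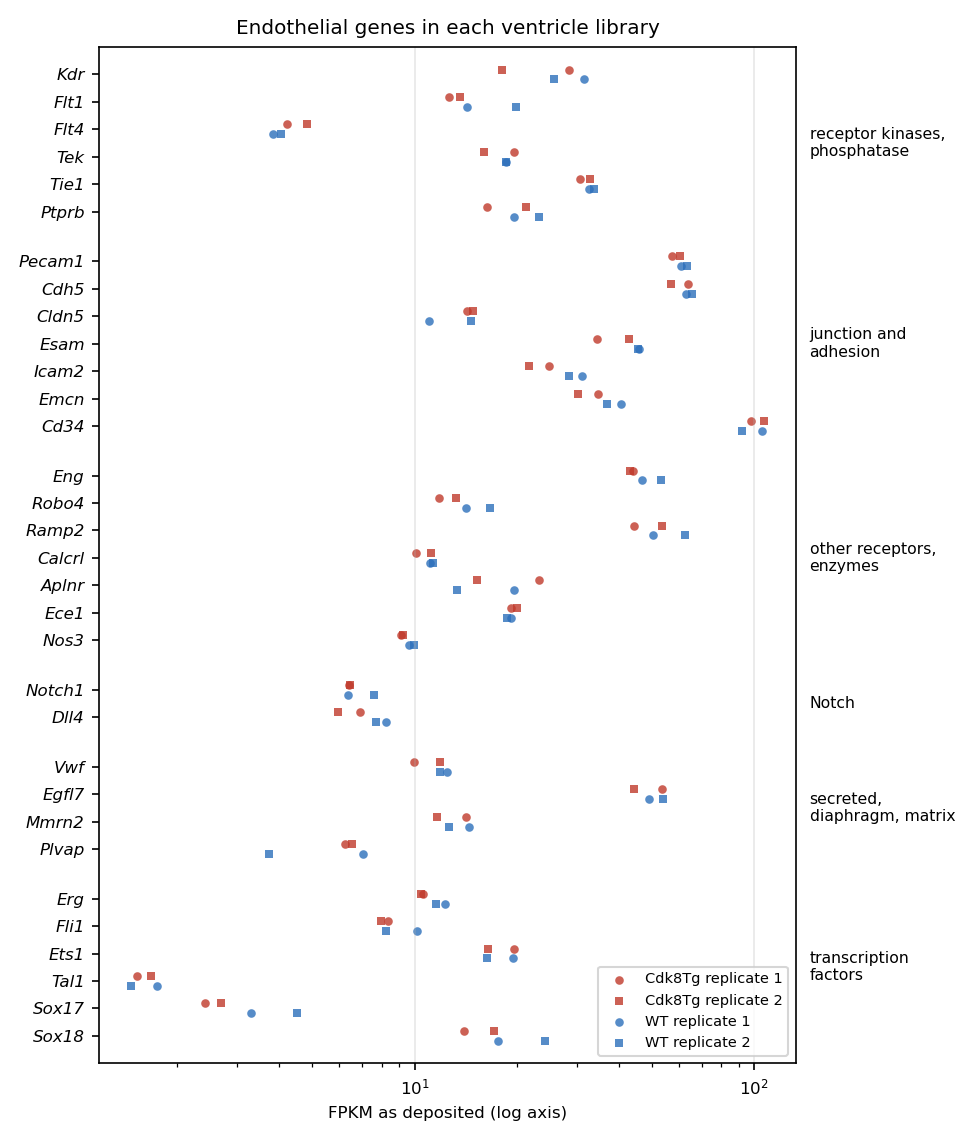
FPKM of the 32 endothelial genes (rows, grouped by role) in each library, on a log axis, with Cdk8Tg (red) above WT (blue) and circles and squares for replicates 1 and 2. Most rows show red and blue symbols side by side, from Tal1 near 1.60 FPKM to Cd34 near 100.5 FPKM.

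The sign of the list's median depended on the scale, while on each scale below a larger share of the list than of all rows was below 0. On the deposited scale 25 of 32 genes had a fitted change below 0 and the list's median was -0.10, against 33.9% of all rows below 0 and a median of 0.13. All Cdk8Tg values lay below all WT values for 12 of the 32 genes (37.5%, against 21.1% of all rows), and above them for 2 genes, Flt4 and Ece1 (6.25%, against 49.2% of all rows). Median-of-ratios scaling, which brings the median of all rows to 0.00, gave 28 of 32 below 0 (49.8% of all rows) and a median of -0.24. Quantile normalization gave 27 (48.2% of all rows) and -0.22, against a median of 0.012 for all rows. With every library scaled to the same FPKM sum, 10 of 32 were below 0 (19.2% of all rows). The list's median was then 0.08, against 0.30 for all rows. Members called were 1 after median-of-ratios scaling (Icam2, lower, where 11.7% of all rows were called lower and 7.96% higher), 0 by limma on the equal-sum scale (46.7% of all rows, 5.49% lower and 41.2% higher), and 2 without Cdk8Tg replicate 1 (Icam2 and Kdr, both lower, against 21.8% of all rows, 7.6% lower and 14.2% higher). For the calls on the deposited scale, 16.9% of all rows were higher and 7.98% lower, and for those after median-of-ratios scaling 19.6% were called in all. The summed FPKM of the 32 genes showed the same dependence: 754 and 749 in Cdk8Tg against 811 and 821 in WT, yet 0.168% and 0.170% of each library's whole sum in Cdk8Tg against 0.159% and 0.162% in WT. In bulk tissue, a change in the share of endothelial cells, in RNA per endothelial cell or in the RNA of other cells cannot be told apart.

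**Figure D2:**
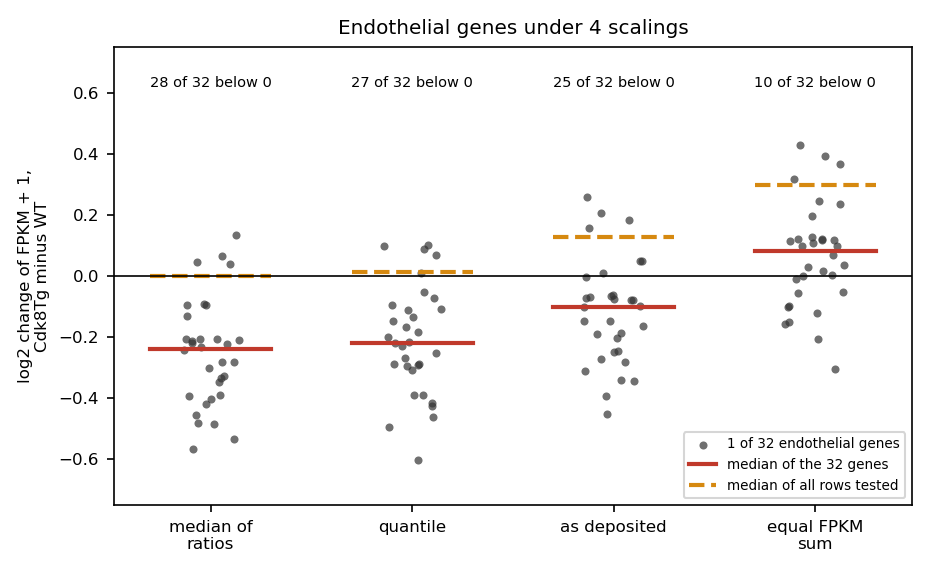
Fitted log2 change (Cdk8Tg minus WT) of each of the 32 genes under 4 scalings, with the median of the 32 (red line) and of all rows tested (dashed orange line). The list's median lay below that of all rows under each of these scalings, while it was above 0 on the equal-sum scale (0.08) and below 0 on the other 3 (-0.24, -0.22 and -0.10).

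Among the receptor kinases, Flt1 and Kdr had fitted changes of -0.34 and -0.31 and Tek and Tie1 sat near 0. By limma on the deposited scale none of them was called. Flt1, a VEGF receptor that also binds VEGF-B and placental growth factor and acts partly as a decoy, was at 12.6 and 13.6 FPKM in Cdk8Tg against 14.3 and 19.8 FPKM in WT. Its groups did not overlap, but the WT libraries were 1.39-fold apart. Flt1 had a limma log2 change of -0.34 with an SE of 0.16 (Benjamini-Hochberg adjusted p = 0.16), which was -0.57 without WT replicate 1 and -0.12 without WT replicate 2. Kdr, the main signalling receptor for VEGF-A, was at 28.5 and 18.1 FPKM in Cdk8Tg against 31.5 and 25.7 FPKM in WT. Cdk8Tg replicate 2 was the low library and replicate 1 lay between the WT values, a 1.57-fold spread within Cdk8Tg. Kdr had a limma log2 change of -0.31 with an SE of 0.22 (Benjamini-Hochberg adjusted p = 0.33). Kdr rested on single libraries: its log2 change was -0.00067 without Cdk8Tg replicate 2 (limma adjusted p = 0.997) and -0.17 without WT replicate 1, but -0.62 and called without Cdk8Tg replicate 1 (limma adjusted p = 0.040), with 0.040 and 0.997 the ends of its adjusted p over 14 alternatives. Flt4, the receptor for VEGF-C known best from lymphatic vessels, pointed the other way, at 4.22 and 4.81 FPKM in Cdk8Tg against 3.83 and 4.04 FPKM in WT (log2 change 0.16; limma adjusted p = 0.31).

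Tek, the angiopoietin receptor, was at 19.6 and 16.0 FPKM in Cdk8Tg against 18.6 and 18.5 FPKM in WT. The WT values lay between those of Cdk8Tg, and the log2 change of -0.07 had a 95% interval of -0.35 to 0.22 (limma). Tie1, an orphan receptor that pairs with Tek, was at 30.6 and 32.9 FPKM in Cdk8Tg against 32.6 and 33.9 FPKM in WT, with an interval of -0.27 to 0.14. Ptprb, the vascular phosphatase that quiets Tek signalling, was at 16.3 and 21.3 FPKM in Cdk8Tg against 19.7 and 23.2 FPKM in WT, a log2 change of -0.19.

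The 250 bases just before the starts of Flt1, the one receptor of this group called in the authors' deposited table, and Tek, the receptor of a ligand that fell, are shown (RefSeq promoters, build GRCm38.p6, 5′ to 3′ on the gene's strand). Capitals mark GGAA or its reverse complement TTCC, the core that ETS factors such as Erg, Fli1 and Ets1 recognise. Flt1 lies on the minus strand at chr5:147726012-147726261, and Tek on the plus strand at chr4:94739039-94739288.
Flt1: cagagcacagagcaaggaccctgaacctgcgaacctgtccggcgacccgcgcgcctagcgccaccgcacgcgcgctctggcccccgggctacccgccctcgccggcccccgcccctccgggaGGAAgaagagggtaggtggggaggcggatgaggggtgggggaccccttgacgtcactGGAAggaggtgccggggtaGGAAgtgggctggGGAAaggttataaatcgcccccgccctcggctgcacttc
Tek: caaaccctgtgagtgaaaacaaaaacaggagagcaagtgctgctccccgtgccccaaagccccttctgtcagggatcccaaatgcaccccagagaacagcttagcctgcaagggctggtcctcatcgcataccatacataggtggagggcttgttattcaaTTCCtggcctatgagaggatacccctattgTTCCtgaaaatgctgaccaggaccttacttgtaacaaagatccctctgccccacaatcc
The Flt1 stretch holds 4 such cores and 70.4% G or C, and the Tek stretch holds 2 and 51.2% G or C. Promoters of 17 of the 32 genes were matched in that table. GGAA was found on either strand in 94.1% of these and in 94.2% of 27025 genes, and the longer CAGGAA, which contains it, in 58.8% against 28.3%. CAGGAA was picked after other motifs had been searched, so this difference is a description. A match describes the letters in the window and is not evidence of a bound factor.

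Of the 7 junction and surface genes, 4 lay lower in both Cdk8Tg libraries than in both WT libraries without a call, as did 21.1% of all rows, called or not. Pecam1, the platelet and endothelial adhesion molecule, was at 57.4 and 60.4 FPKM in Cdk8Tg against 60.7 and 63.5 FPKM in WT. The groups were apart by a narrow margin, and the log2 change of -0.07 had an interval of -0.27 to 0.13 (limma). Cdh5, the cadherin of endothelial junctions, was at 63.6 and 56.7 FPKM in Cdk8Tg against 63.1 and 65.6 FPKM in WT, with overlapping groups and an interval of -0.32 to 0.13. Icam2, an adhesion molecule present on resting endothelium, was at 24.9 and 21.7 FPKM in Cdk8Tg against 31.0 and 28.5 FPKM in WT. Of the 32 genes, Icam2 had the lowest Benjamini-Hochberg adjusted p, 0.061 by limma, with a log2 change of -0.34 and an SE of 0.10. Icam2 was called after median-of-ratios scaling (-0.48; limma adjusted p = 0.031, where 11.7% of all rows were called lower) and without Cdk8Tg replicate 1 (-0.43; limma adjusted p = 0.048), and its adjusted p ran from 0.031 to 0.24 over 14 alternatives. Emcn, a sialomucin of capillaries and veins, was at 34.7 and 30.2 FPKM in Cdk8Tg against 40.5 and 36.8 FPKM in WT, and Esam, a tight junction adhesion molecule, at 34.4 and 42.9 FPKM in Cdk8Tg against 45.9 and 45.6 FPKM in WT. Their log2 changes were -0.25 and -0.25 (limma adjusted p = 0.13 and 0.18). That of Esam was -0.09 without Cdk8Tg replicate 1 and -0.40 without Cdk8Tg replicate 2. Cldn5, the claudin of endothelial tight junctions, was at 14.3 and 14.9 FPKM in Cdk8Tg against 10.999 and 14.7 FPKM in WT, a log2 change of 0.18 whose sign turned to -0.0089 without WT replicate 1. Cd34, a sialomucin that blood progenitors and fibroblasts also carry, was at 97.6 and 106.8 FPKM in Cdk8Tg against 105.6 and 92.0 FPKM in WT (log2 change 0.05).

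**Figure D3:**
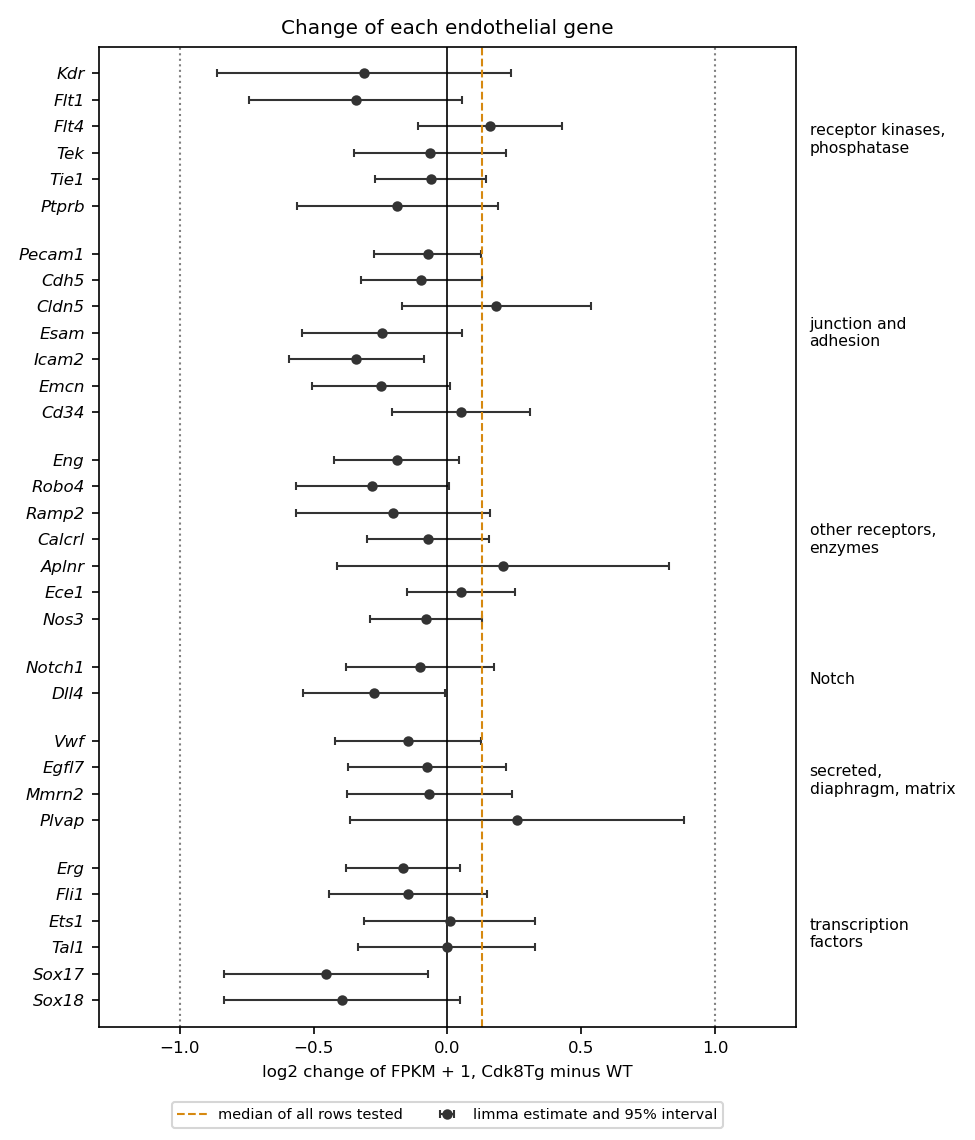
limma log2 change (Cdk8Tg minus WT) of each of the 32 genes with its 95% interval, grouped by role, with the median of all rows tested as a dashed line and dotted lines at 1 log2 unit. Every interval lies inside the dotted lines, and Sox17, Icam2 and Dll4 have intervals wholly below 0.

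Receptors for peptides and BMP ligands, Robo4 and the vasoactive enzymes also gave no call. Eng, a coreceptor for BMP and TGF-beta ligands, was at 44.0 and 43.1 FPKM in Cdk8Tg against 46.6 and 53.2 FPKM in WT (log2 change -0.19; limma adjusted p = 0.18). Robo4, an endothelial receptor of the Roundabout family, was at 11.8 and 13.2 FPKM in Cdk8Tg against 14.2 and 16.7 FPKM in WT, again with the groups apart (-0.28; limma adjusted p = 0.12). Nos3, the endothelial nitric oxide synthase, was at 9.12 and 9.25 FPKM in Cdk8Tg against 9.60 and 9.94 FPKM in WT. The pairs for Nos3 were tight within each group, and its log2 change of -0.08 had an interval of -0.29 to 0.13 (limma). Ece1, which cuts the precursor of endothelin, was at 19.2 and 20.1 FPKM in Cdk8Tg against 19.2 and 18.7 FPKM in WT, with its groups apart by less than the rounding (0.05, interval -0.15 to 0.25). Calcrl, the receptor that responds to adrenomedullin when paired with Ramp2, was at 10.1 and 11.2 FPKM in Cdk8Tg against 11.1 and 11.3 FPKM in WT, and Ramp2 at 44.2 and 53.5 FPKM in Cdk8Tg against 50.2 and 62.7 FPKM in WT. Their groups overlapped, with log2 changes of -0.07 and -0.20. Aplnr, the apelin receptor, spread widely within both groups, at 23.3 and 15.2 FPKM in Cdk8Tg against 19.6 and 13.4 FPKM in WT. Its log2 change of 0.21 had a wide interval, -0.41 to 0.83 (limma).

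Of the Notch pair, Dll4, the Notch ligand of arterial and tip cells, was lower in both Cdk8Tg libraries. It stood at 6.90 and 5.96 FPKM in Cdk8Tg against 8.23 and 7.70 FPKM in WT, or -0.27 on the log2 scale with an SE of 0.11 (limma, Benjamini-Hochberg adjusted p = 0.11). Notch1, its receptor, was at 6.39 and 6.45 FPKM in Cdk8Tg against 6.37 and 7.61 FPKM in WT, with overlapping groups (-0.10). The secreted and matrix proteins overlapped between groups throughout. Vwf, the clotting factor stored in endothelial granules, was at 9.98 and 11.9 FPKM in Cdk8Tg against 12.5 and 11.9 FPKM in WT. Egfl7, a secreted factor whose gene hosts miR-126, was at 53.6 and 44.2 FPKM in Cdk8Tg against 49.0 and 53.9 FPKM in WT, and Mmrn2, a matrix protein of vessels, at 14.1 and 11.7 FPKM in Cdk8Tg against 14.5 and 12.6 FPKM in WT. Plvap, the protein of endothelial diaphragms, was at 6.23 and 6.56 FPKM in Cdk8Tg against 7.06 and 3.73 FPKM in WT. WT replicate 2 was the low library for Plvap, 1.89-fold below WT replicate 1, and the log2 change of 0.26 turned to -0.12 without it.

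The transcription factors split, with both SOX genes among the lowest changes of the list and the other 4 between -0.16 and 0.0084. Sox17, a SoxF factor of arterial endothelium, was at 2.41 and 2.70 FPKM in Cdk8Tg against 3.30 and 4.50 FPKM in WT. Its groups did not overlap, and limma gave -0.45 on the log2 scale with an SE of 0.15 (Benjamini-Hochberg adjusted p = 0.082). Sox18, its relative, was at 14.0 and 17.1 FPKM in Cdk8Tg against 17.5 and 24.2 FPKM in WT, with both Cdk8Tg values below both WT values but Cdk8Tg replicate 2 close to WT replicate 1. For Sox18 limma gave -0.39 with an SE of 0.18 (Benjamini-Hochberg adjusted p = 0.15). Leaving out a library moved both genes, to between -0.63 and -0.28 for Sox17 and to between -0.62 and -0.17 for Sox18, with WT replicate 1 and WT replicate 2 left out at these ends. On GRCm38, Sox17 lies on chromosome 1 at 4490931 to 4497354 and Sox18 on chromosome 2 at 181669836 to 181671640.

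Erg, an ETS factor that maintains endothelial identity, was at 10.6 and 10.4 FPKM in Cdk8Tg against 12.3 and 11.5 FPKM in WT, groups apart by a small step (-0.16; limma adjusted p = 0.20). Fli1, its close relative, was at 8.34 and 7.98 FPKM in Cdk8Tg against 10.1 and 8.25 FPKM in WT (-0.15). Ets1 was at 19.6 and 16.4 FPKM in Cdk8Tg against 19.4 and 16.4 FPKM in WT, almost the same pair in each group. Tal1, a bHLH factor of endothelial and blood progenitors, was at 1.52 and 1.67 FPKM in Cdk8Tg against 1.74 and 1.46 FPKM in WT (log2 change -0.0026, interval -0.33 to 0.33; limma). Fli1, Tal1, Ets1, Cd34 and Pecam1 are also expressed by blood cells.

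The authors' deposited table called 3 of the 32 genes at q under 0.05, all lower in Cdk8Tg, where 14% of its 12393 tested genes were called in either direction and 8.43% as lower. In the authors' deposited table Sox17 had 2.91 FPKM in Cdk8Tg and 4.95 FPKM in WT (q = 0.031), Sox18 had 17.7 FPKM in Cdk8Tg and 26.6 FPKM in WT (q = 0.032), and Flt1 had 14.9 FPKM in Cdk8Tg and 21.7 FPKM in WT (q = 0.021). Kdr and Icam2 both stood at q = 0.077 in the authors' deposited table. Its log2 ratios run lower than those of the FPKM per library, by a median of -0.16 over 11687 genes. The median ratio of those 11687 genes was -0.0090 there, against -0.27 for the 32 genes, of which 28 had a ratio below 0. All 3 of its calls were among the 12 genes whose libraries did not overlap. Both come from the same 4 libraries, so this is not separate support.

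By limma on the deposited scale none of the VEGF and Tie receptors was called, while 3 ligands that act on them were called lower. Flt1 was called lower in the authors' deposited table (q = 0.021), and the log2 change of Kdr ran from -0.62 to -0.00067 with a library left out. Angpt1, the angiopoietin that activates Tek, was at 2.61 and 2.34 FPKM in Cdk8Tg against 10.9 and 10.1 FPKM in WT. Both Cdk8Tg libraries were far below both WT libraries, by -1.73 on the log2 scale with an SE of 0.10 (limma, Benjamini-Hochberg adjusted p = 0.0022), and the call held in all 14 alternatives, at adjusted p from 0.00088 to 0.035. Vegfb, a ligand of Flt1, fell to 87.0 and 71.8 FPKM in Cdk8Tg, against 125.8 and 132.3 FPKM in WT, -0.70 on the log2 scale with an SE of 0.11 (limma, Benjamini-Hochberg adjusted p = 0.015). Its call was lost without WT replicate 1 (-0.74; limma adjusted p = 0.069), without WT replicate 2 (-0.66; limma adjusted p = 0.095) and with no filter, within a range of 0.0065 to 0.095 over 14 alternatives. Vegfa, the main ligand of Kdr, was at 72.8 and 64.2 FPKM in Cdk8Tg against 87.3 and 98.3 FPKM in WT (-0.43 ± 0.11, SE; limma adjusted p = 0.038). The Vegfa call held in 7 of 14 alternatives and was lost without Cdk8Tg replicate 2 (-0.34), WT replicate 1 (-0.52) or WT replicate 2 (-0.35), with quantile normalization, on the equal-sum scale, with no filter and without a variance trend. Of the 8 tested genes in this list of VEGF and angiopoietin ligands and coreceptors, 3 fell and 0 rose, against 7.98% of all rows called lower, and the same counts were found after median-of-ratios scaling, while with quantile normalization 2 fell and on the equal-sum scale 2 fell and 1 rose. Angpt2, Vegfc, Pgf and the coreceptors Nrp1 and Nrp2 had log2 changes of 0.19, 0.30, -0.41, -0.19 and -0.17 with no call, and Figf (VEGF-D) was below the filter at 0.62 to 0.96 FPKM. On GRCm38, Angpt1 lies on chromosome 15 at 42424723 to 42676977. The Vegfa and Vegfb changes lay within the 95% intervals (limma) of Flt1 (-0.74 to 0.054) and Kdr (-0.86 to 0.24). That of Angpt1 lay outside the interval of Tek (-0.35 to 0.22). A test of the difference between ligand and receptor changes was not made.

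**Figure D4:**
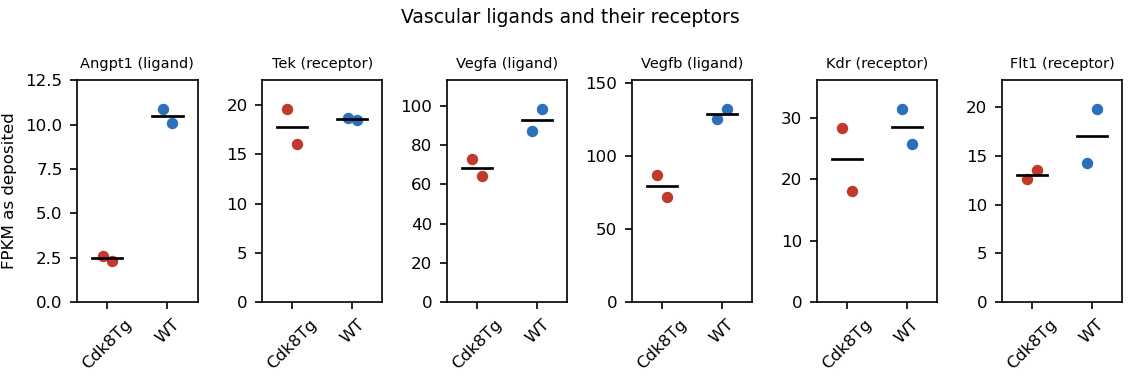
FPKM in each library (points) with the group mean (line) for the ligands Angpt1, Vegfa and Vegfb and the receptors Tek, Kdr and Flt1, with each axis starting at 0. Angpt1 averages 2.48 FPKM in Cdk8Tg and 10.5 FPKM in WT, while both Tek values of WT lie between those of Cdk8Tg.

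Other vascular genes, from lists chosen with earlier results of these data known, were called in shares on both sides of the 24.9% of all rows. Of 66 further endothelial genes tested, 5 rose and 3 fell, which is 12.1%. After median-of-ratios scaling the counts were 1 and 5, with quantile normalization 2 and 2, and on the equal-sum scale 16 and 2. The rises included Tspan12 (0.71), a tetraspanin of Norrin signalling, F11r (0.44), the junctional molecule JAM-A, Ccm2 (0.51), of the cerebral cavernous malformation complex, and S1pr1 (0.29), the sphingosine phosphate receptor. The falls were Dysf (-0.67), a membrane repair protein abundant in muscle, Cd36 (-0.55), a fatty acid transporter that cardiomyocytes also carry, and Btnl9 (-0.45). After median-of-ratios scaling Tspan12 was the only rise of this list still called. Among 16 further receptors, 4 rose and 2 fell, which is 37.5%, with S1pr1 counted here too. After median-of-ratios scaling 1 rose and 3 fell, with quantile normalization the counts were 1 and 2, and on the equal-sum scale 5 and 2. Ramp1, which pairs with Calcrl to form the CGRP receptor, was at 5.21 and 3.94 FPKM in Cdk8Tg against 13.4 and 12.4 FPKM in WT, well apart (-1.33 with an SE of 0.13; limma, Benjamini-Hochberg adjusted p = 0.0060), and was called in all 14 alternatives. Lifr, the leukaemia inhibitory factor receptor, fell by 0.63 on the log2 scale, and the guidance receptor Unc5b, the thrombin receptor F2r and the cytokine receptor subunit Il6st rose by 0.68, 0.61 and 0.35, of which F2r and Il6st lost their calls after median-of-ratios scaling.

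In the Notch pathway 1 of 13 genes was called, Heyl, a Notch target also known from smooth muscle, at 11.3 and 14.0 FPKM in Cdk8Tg against 7.35 and 6.34 FPKM in WT (0.80; limma adjusted p = 0.016). After median-of-ratios scaling and with quantile normalization 1 of the 13 rose and 2 fell, and on the equal-sum scale 3 rose and 0 fell. Of 10 arterial genes limma called 0 (1 at an unadjusted p under 0.05, 1 in the authors' deposited table). Alternatives called 1 arterial gene lower after median-of-ratios scaling and with quantile normalization, 1 higher on the equal-sum scale and 1 lower without Cdk8Tg replicate 2. Of 10 other vascular ligands limma called 0 (2 at an unadjusted p under 0.05, 1 in the authors' deposited table, 1 higher on the equal-sum scale and 1 lower without Cdk8Tg replicate 1). Of 10 venous, endocardial and activation genes, 1 fell and 2 rose, which is 30% (1 and 0 after median-of-ratios scaling). The fall was Lrg1, a secreted glycoprotein of vessels and other cells, at 2.67 and 2.83 FPKM in Cdk8Tg against 18.6 and 21.5 FPKM in WT (-2.48), and the rises were Cpe (0.50) and Tmem108 (0.64), both lost after median-of-ratios scaling. Of 4 lymphatic genes tested, Lyve1, a hyaluronan receptor that tissue macrophages also carry, fell to 6.13 and 8.47 FPKM in Cdk8Tg, against 11.7 and 14.7 FPKM in WT (-0.78; limma adjusted p = 0.031). Of the genes named as called in these further lists, only Ramp1 and Lrg1 were still made without WT replicate 2. Without WT replicate 1, Dysf, Tspan12 and Unc5b were still called beside them, and the others were not. Without Cdk8Tg replicate 2, Btnl9, Ccm2, F11r, F2r, Il6st, S1pr1, Tmem108 and Unc5b lost their calls, and without Cdk8Tg replicate 1, S1pr1, Tmem108 and Lyve1 did.

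**Figure D5:**
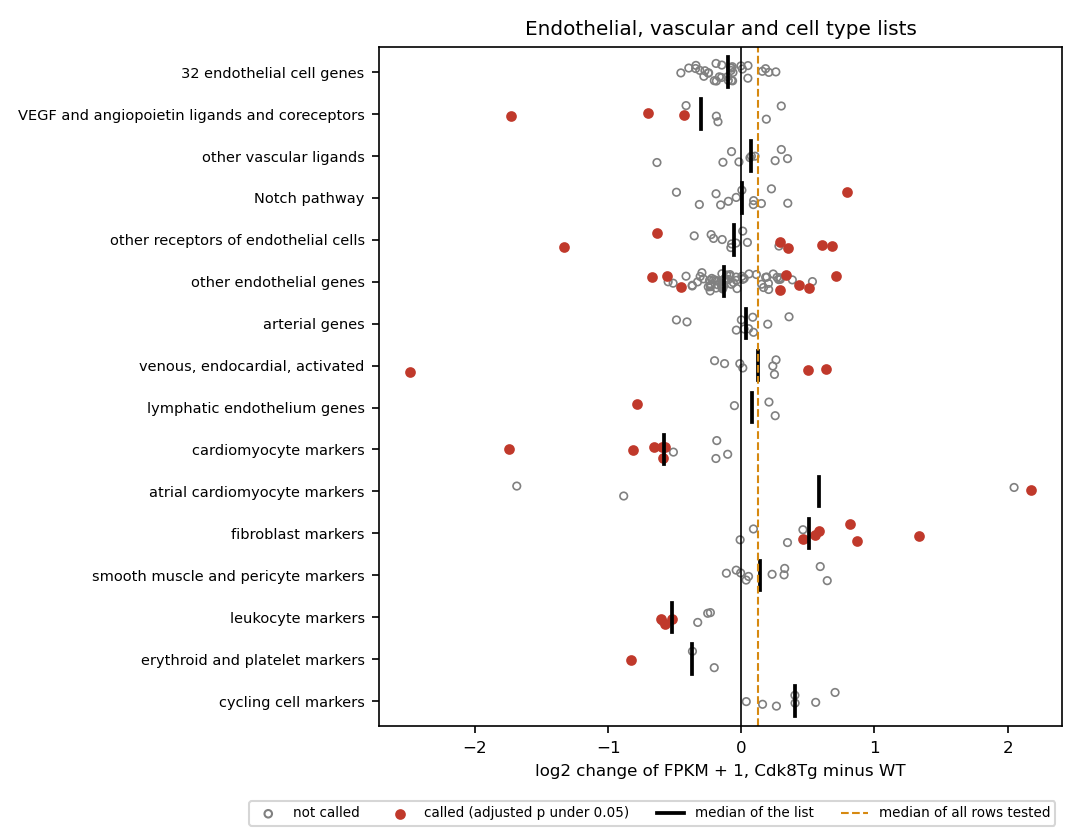
limma log2 change (Cdk8Tg minus WT) of each tested gene of the 32 endothelial genes, the 8 related lists and the 7 lists of cell type markers, filled red where called, with each list's median as a black bar and the median of all rows as a dashed line. The endothelial row holds no red point and has a median on the deposited scale of -0.10, against -0.58 for cardiomyocyte and 0.51 for fibroblast markers.

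Markers of other ventricular cells moved in the same libraries, and their part in the endothelial values was not tested. For the counts below, 7.98% of all rows were called lower and 16.9% higher on the deposited scale. After median-of-ratios scaling these shares were 11.7% and 7.96%, and on the equal-sum scale 5.49% and 41.2%. Cardiomyocyte markers fell in 6 of 10 cases and rose in 0, with a median of -0.58. Their summed levels were 40726 to 42792 FPKM in Cdk8Tg against 59763 to 62222 FPKM in WT. The falls numbered 7 after median-of-ratios scaling and 4 on the equal-sum scale. With quantile normalization 2 fell, Tnni3 and Tnnt2, 1 rose, Actc1 (0.28; limma adjusted p = 0.030), and the median was -0.033. Without either WT replicate 1 or WT replicate 2, 1 of the falls was still called. Fibroblast markers rose in 6 of 10 cases and fell in 0 (4 and 0 after median-of-ratios scaling), with a median of 0.51 and sums of 1577 to 2001 FPKM in Cdk8Tg against 1355 to 1411 FPKM in WT. Leaving out WT replicate 2 brought the rises to 0, and leaving out Cdk8Tg replicate 2 or WT replicate 1 brought them to 2 each. Of the 10 smooth muscle and pericyte markers limma called 0 (2 at an unadjusted p under 0.05, 0 in the authors' deposited table, 3 higher without Cdk8Tg replicate 1 and 2 higher on the equal-sum scale), and their sums were 684 to 939 FPKM in Cdk8Tg against 633 FPKM in both WT libraries. Of 7 tested leukocyte markers, 3 fell, with sums of 141 to 179 FPKM in Cdk8Tg against 217 to 226 FPKM in WT, and 0 were called without WT replicate 1 or 2. Of 3 tested erythroid and platelet markers 1 fell, Pf4 (not without WT replicate 2), and the sums of this list were 453 to 585 FPKM in Cdk8Tg against 418 to 902 FPKM in WT. Cycling cell markers gave 0 calls among 7 by limma (1 at an unadjusted p under 0.05, 0 in the authors' deposited table, 1 higher on the equal-sum scale), with sums of 18.2 to 25.0 FPKM in Cdk8Tg against 10.0 to 20.6 FPKM in WT. The atrial marker Bmp10 was listed at 0 in all 4 libraries.

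The spread of the 32 genes within a group was slightly wider than that of the whole table, in Cdk8Tg and in WT. The higher library exceeded the lower by a median of 1.12-fold in Cdk8Tg and 1.14-fold in WT, against 1.10-fold and 1.09-fold over all rows tested. A spread above 1.2-fold was seen for 9 genes in Cdk8Tg, with Kdr (1.57) and Aplnr (1.53) the widest, and for 9 in WT, with Plvap (1.89) and Aplnr (1.47) the widest. Exons of 8 of the 32 genes overlap another annotated gene in GENCODE M21, on the same strand for Ramp2 (Vps25) and Egfl7 and on the opposite strand for Cd34, Eng, Nos3, Notch1, Dll4, Sox17 and again Egfl7. The libraries were stranded, but the sources used here do not give the strand setting of the counting, so these values may hold reads of the neighbour.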

How the data were processed

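RNA of frozen ventricles was extracted with Trizol, per the labels' protocols, and stranded TruSeq libraries were made from polyadenylated RNA. Per the submitters' processing notes, TopHat (1.0.0), Cufflinks and Cuffdiff were used with mm10. Other versions, the annotation and the scaling: not given in the sources used here. The authors deposited FPKM per gene and library and a Cuffdiff table with FPKM per group, p-values and q-values. The columns summed to 448495 and 440324 FPKM in Cdk8Tg and to 510844 and 508247 FPKM in WT, and no counts were used.

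Groups and replicate numbers came from the sample titles. limma 3.58.1 (R 4.3.3) was fitted to log2(FPKM + 1) of all 4 libraries with a trended empirical Bayes variance, no covariates and 2 residual degrees of freedom. Of 23847 rows, the 11888 with a mean of at least 1 FPKM were tested, and Benjamini-Hochberg adjusted p under 0.05 over these was called. Changes on this scale understate those of low genes. The procedure was tested on simulated data. The members, related lists and cell type markers were chosen with earlier results of these data known. All 32 members are named, and from each related list the called genes, up to 6 by p, plus every VEGF and angiopoietin ligand and coreceptor; marker genes named besides these were picked after their values were seen. Alternatives were pseudocounts of 0.1 and 5, no filter, a minimum of 5 FPKM, median-of-ratios, quantile and equal-sum scaling, an untrended and a robust variance, a replicate block, each library left out in turn, and the authors' calls. Sequences came from RefSeq promoters (GRCm38.p6) and gene positions from GENCODE M21 (GRCm38).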

Additional observations from a re-analysis of the deposited data

How the results depend on the processing

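The result that no endothelial gene was called higher held under all 14 limma alternatives and in the authors' table. The number called lower was 0, where 7.98% of all rows were called lower. It became 1 after median-of-ratios scaling (Icam2, against 11.7% of all rows) and 3 in the authors' deposited table (against 8.43% of its tested genes). With the replicate block it was 2 (Icam2 and Sox18), and the counts over all rows for that setting are given below. Without Cdk8Tg replicate 1, the log2 changes of Icam2 and Kdr were -0.43 and -0.62. The list's median of -0.10 became -0.24 after median-of-ratios scaling, -0.22 with quantile normalization, -0.081 with a pseudocount of 5 and 0.083 on the equal-sum scale, and ran from -0.12 to -0.088 with a library left out.

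Over all rows, 2009 rose and 949 fell. Rises numbered 946 after median-of-ratios scaling (with 1385 falls), 1011 with quantile normalization (with 1042 falls), 4899 on the equal-sum scale (with 653 falls), 641 with no filter (with 414 falls) and 685 in the authors' table (with 1045 falls). With a library left out, which leaves 1 residual degree of freedom and assumes that the lone library varies like the other group, rises ran from 162 to 1686 and falls from 157 to 901. The calls left were 162 and 157 without WT replicate 2, 401 and 296 without WT replicate 1, and 709 and 615 without Cdk8Tg replicate 2. Rises made up 67.9% of calls as deposited, 40.6% after median-of-ratios scaling and 88.2% on the equal-sum scale.

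Several uncalled changes turned sign, and the cause was not tested. On the equal-sum scale Tek at 0.12, Tie1 at 0.13, Ptprb at 0.0010, Pecam1 at 0.12, Cdh5 at 0.10, Eng at 0.0039, Calcrl at 0.11, Nos3 at 0.10, Notch1 at 0.069, Vwf at 0.036, Egfl7 at 0.12, Mmrn2 at 0.12, Erg at 0.016, Fli1 at 0.029 and Tal1 at 0.12 were above 0. After median-of-ratios scaling Cd34 at -0.10, Ece1 at -0.091 and Ets1 at -0.13 were below 0, as were Ece1 at -0.052 and Ets1 at -0.094 with quantile normalization and Cd34 at -0.11, Ece1 at -0.11 and Ets1 at -0.14 in the authors' table. With single libraries left out, Tek ran from -0.20 to 0.073, Cldn5 ran from -0.0089 to 0.37, Cd34 ran from -0.048 to 0.15, Aplnr ran from -0.083 to 0.50, Notch1 ran from -0.21 to 0.0088, Egfl7 ran from -0.21 to 0.059, Mmrn2 ran from -0.20 to 0.061, Plvap ran from -0.12 to 0.64, Ets1 ran from -0.11 to 0.13 and Tal1 ran from -0.081 to 0.076.

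The titles number the replicates but do not state a pairing. Deviations of same-numbered libraries correlated at -0.026 across genes, but with 2 libraries per group this cannot decide whether they were paired. The replicate block gave 1855 rises and 970 falls over all rows, and called Icam2 (-0.34; limma adjusted p = 0.045) and Sox18 (-0.39; limma adjusted p = 0.039), whose adjusted p ran from 0.031 to 0.24 and from 0.039 to 0.52 over 14 alternatives. With 2 libraries per group precision varied between genes: SEs ran highest for Plvap, Aplnr and Kdr (0.25, 0.25 and 0.22). The interval lay within 0.5 log2 units of 0 for 18 of 32 genes, against 43.9% of all rows tested.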
